A study of Mus musculus with 24 samples.

Results

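Liver RNA of wild-type C57BL/6 mice fed high sucrose with 2% cholesterol (HS_Chol) was compared with that of wild-type C57BL/6 mice fed normal chow (NC). The comparison used 3 HS_Chol and 4 NC libraries, which are 7 of the 20 libraries that could be matched to a diet, and all 12595 genes that passed a low-count filter. Mice of both groups began their diet when 8 to 10 weeks old and ate it for 8 weeks; the tissue was whole liver, so the diet is the stated difference between them. The 2 diets differ in sucrose as well as in cholesterol, and 5 libraries of mice fed high sucrose alone (HS, same strain, age and duration) are set beside them where the added cholesterol matters. Of the labelled HS samples 1 carries a diet label of chow; it could not be tied to a column, so all 5 HS libraries were used. The labels number the samples but do not say that each is a separate animal, so the p-values measure the spread between these samples. In whole liver, fewer cells of a type and less RNA per cell cannot be told apart.

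The liver makes cholesterol from acetyl-CoA, first along the mevalonate arm to squalene and then through a run of sterol intermediates. The transcription factor SREBP2 (gene Srebf2) switches on these enzymes when sterol in the endoplasmic reticulum is low, and dietary cholesterol is known to hold it back. The nuclear receptor LXR is activated by oxidized sterols and switches on genes for sterol export and lipid remodelling. Cholesterol also leaves the liver as bile acids, whose synthesis begins with Cyp7a1.

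Of the 12595 genes tested, 287 (2.28%) differed between HS_Chol and NC, of which 216 (1.71%) were higher and 71 (0.564%) lower in HS_Chol, at an adjusted p under 0.05 (edgeR quasi-likelihood test with Benjamini-Hochberg adjustment). Levels are given in CPM, a gene's read count scaled to 1000000 reads of effective library size, and changes as log2 fold changes of HS_Chol over NC with their standard errors. Total reads were 6110484 to 6709497 in the HS_Chol libraries and 7598660 to 8215500 in the NC libraries. The labelled tissue fits its marker genes, since albumin (Alb) stood at 54290 to 63710 CPM in HS_Chol and at 85750 to 94530 CPM in NC. The summed level of 9 hepatocyte genes was 84010 to 93980 CPM in HS_Chol and 126900 to 128700 CPM in NC, and none of the 9 passed the edgeR test. At an unadjusted p under 0.05, which 11.6% of all genes tested reached, 3 of them were lower, and DESeq2 called 2 lower. The chow library NC_3 stood apart: its correlation with the other chow libraries was 0.957 to 0.961, against 0.985 to 0.987 among those. The 3 HS_Chol libraries carried more reads on the wrong strand. Reads on mitochondrial light-strand tRNA genes numbered 673 to 900 per 1000000 heavy-strand mRNA reads in HS_Chol and 8.95 to 40.8 in NC; these values are a description, since the larger share was known from earlier results of these libraries. A read counted on the wrong strand is credited to a gene that lies opposite its own, so genes with no annotated gene on the other strand are described first.

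Among the 6862 tested genes with no gene on the opposite strand, 94 (1.37%) differed: 53 (0.772%) were higher and 41 (0.597%) lower in HS_Chol. Enzymes of cholesterol synthesis lead the falls, and lipoprotein lipase, a sterol exporter and macrophage genes are among the rises. The median log2 fold change of these 6862 genes was -0.009, against 0.001 over all genes tested. The rises depended on HS_Chol_0 more than the falls did, and the reverse held for HS_Chol_2. Without HS_Chol_2, 50 of the 53 higher genes and 27 of the 41 lower genes kept their call. Without HS_Chol_0 only 11 of the 53 higher genes kept their call and 22 of the 41 lower genes kept theirs, although all 94 kept their direction. The count of higher genes was then 14; it was 23 without HS_Chol_1, 107 without HS_Chol_2 and 19, 26 and 21 without NC_0, NC_1 and NC_2. The count of lower genes was 23 without HS_Chol_0, and over all genes tested 36 were lower without it.

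**Figure D1:**
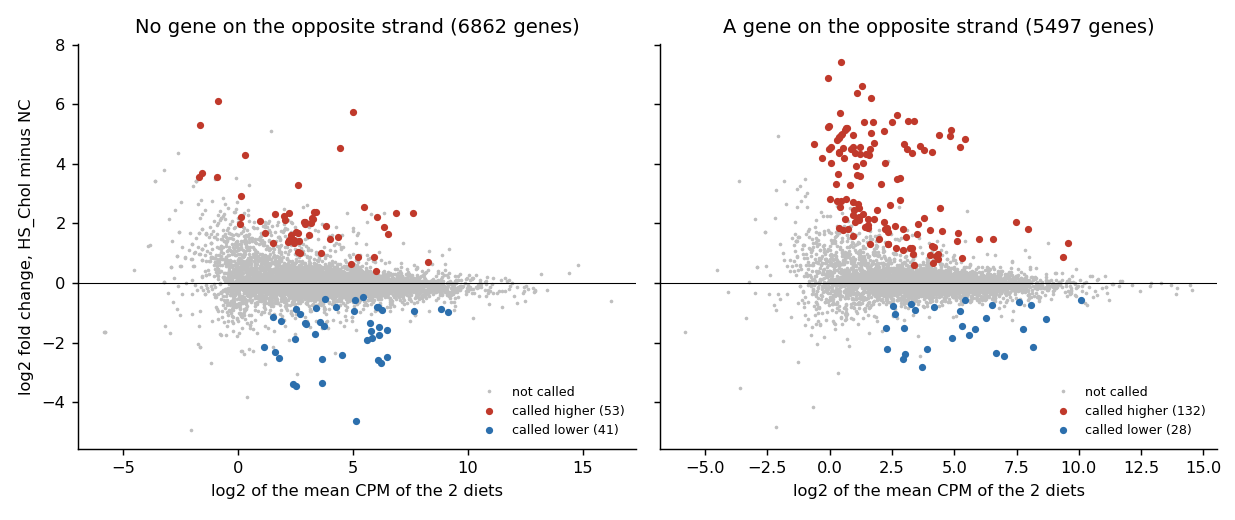
Log2 fold change of HS_Chol over NC (vertical axis) against the log2 of the mean CPM of both diets (horizontal axis), 1 point per gene, for the 6862 genes with no gene on the opposite strand (left) and the 5497 genes with one (right). Genes called at an adjusted p under 0.05 are in red (higher) and blue (lower); the right panel holds 132 higher and 28 lower genes, and its higher genes form a dense group at log2 fold changes of 4 and more.

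Transcripts of cholesterol synthesis enzymes were lower in HS_Chol along most of the pathway. Of 20 enzyme genes tested, 16 fell and none rose, where 0.564% and 1.71% of all genes tested did. The median log2 fold change of the 20 was -1.68 against 0.001 over all genes. Counting only the 13 enzymes with no gene on the opposite strand, 11 fell; of the 7 with one, 5 fell. In 19 of the 20, every HS_Chol library was below every NC library; over all genes tested this held for 5.57%.

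The promoters of several of these enzymes are shown because SREBP2 acts on such promoters through a sterol regulatory element, here searched as TCACNCCAC, together with NF-Y, which binds CCAAT. RefSeq promoter sequences (GRCm38.p6) were found for 16 of the 21 listed enzyme genes, and both motifs were searched on both strands in the 250 bases before the start; the motifs share no bases in the windows shown. CCAAT was found in 15 of the 16 genes (93.8%), against 37.5% of all 27025 genes with a promoter sequence. TCACNCCAC was found in 1 of the 16 (6.25%), against 1.22% of all genes. The 150 bases before the start follow for 4 genes whose window holds no annotated exon, 5′ to 3′ on the gene's own strand, with the motif matches in capitals (ATTGG is CCAAT on the other strand). Hmgcs1 holds the one TCACNCCAC match at 137 to 129 bases before the start, Mvk holds 4 CCAAT matches here, Mvd 2, and Ebp, which was not called, 1. The windows are chr13:119690201-119690350 (plus strand), chr5:114444119-114444268 (plus), chr8:122443423-122443572 (minus) and chrX:8193513-8193662 (minus) in that order.
Hmgcs1: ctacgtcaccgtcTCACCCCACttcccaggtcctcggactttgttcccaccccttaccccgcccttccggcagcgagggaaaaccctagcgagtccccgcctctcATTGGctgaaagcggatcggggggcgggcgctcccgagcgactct
Mvk: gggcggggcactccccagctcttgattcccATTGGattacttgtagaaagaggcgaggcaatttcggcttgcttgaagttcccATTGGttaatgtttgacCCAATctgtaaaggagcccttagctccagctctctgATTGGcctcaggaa
Mvd: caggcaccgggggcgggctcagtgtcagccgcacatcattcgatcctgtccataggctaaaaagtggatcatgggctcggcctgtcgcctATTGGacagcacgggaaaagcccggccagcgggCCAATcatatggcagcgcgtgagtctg
Ebp: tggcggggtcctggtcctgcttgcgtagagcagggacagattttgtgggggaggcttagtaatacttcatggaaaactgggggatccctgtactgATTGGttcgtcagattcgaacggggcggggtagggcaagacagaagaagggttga
A match describes the letters of the window and says nothing of whether a factor was bound.

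Sqle, the squalene epoxidase that starts sterol ring formation and is a rate-limiting step, fell most of all genes in the pathway. It stood at 3.04, 2.27 and 2.79 CPM in HS_Chol, against 70.7, 58.9, 71.8 and 69.2 CPM in NC, a log2 fold change of -4.64 ± 0.43 (adjusted p 1.41e-06, edgeR). The groups lie far apart and the spread within each is small. The gene lies on chromosome 15 at 59315077 to 59331192 (GRCm38, plus strand), with no gene opposite it. On sucrose alone Sqle averaged 47.2 ± 16.9 CPM (SD, n = 5), and HS_Chol was lower than HS by 4.12 ± 0.42 on the log2 scale (adjusted p 2.98e-06, edgeR).

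The mevalonate arm fell at most of its steps. Mevalonate kinase (Mvk) averaged 7.13 ± 1.19 CPM in HS_Chol and 19.3 ± 4.76 CPM in NC (SD, n = 3 and 4), a log2 fold change of -1.43 ± 0.22. Phosphomevalonate kinase (Pmvk) averaged 20.4 ± 4.56 CPM in HS_Chol and 77.1 ± 33.4 CPM in NC, and NC_3 at 127 CPM was its highest library. Farnesyl diphosphate synthase (Fdps), whose product is the branch point to sterols and prenylated proteins, stood at 16.3, 23.9 and 18.1 CPM in HS_Chol, against 89.2, 75.9, 104 and 194 CPM in NC (-2.58 ± 0.33, adjusted p 5.04e-05, edgeR). Acat2, the cytosolic thiolase that opens the arm, averaged 18.3 ± 1.86 CPM in HS_Chol and 44.3 ± 26.1 CPM in NC and did not pass the test (adjusted p 0.0544, edgeR). Idi1, the isomerase between Mvd and Fdps, was too low to test, with 1 read in each HS_Chol library and 5 to 10 reads in the NC libraries.

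The steps after squalene fell as well. Nsdhl, a sterol dehydrogenase of C-4 demethylation, stood at 18.5, 25.2 and 16.9 CPM in HS_Chol, against 119, 94.7, 130 and 177 CPM in NC (-2.68 ± 0.27, adjusted p 3.84e-06, edgeR). Sc4mol, the older symbol of the C-4 methylsterol oxidase Msmo1, averaged 27.0 ± 8.48 CPM in HS_Chol and 152 ± 48.8 CPM in NC, a log2 fold change of -2.49 ± 0.23. Both genes act on the same pair of methyl groups, and in both the groups do not overlap. Dhcr7, the last reductase of one branch, averaged 44.3 ± 4.70 CPM in HS_Chol and 132 ± 31.5 CPM in NC (-1.57 ± 0.20). Hsd17b7, a sterol ketoreductase, fell by 1.62 ± 0.31 on the log2 scale and Tm7sf2, a sterol reductase, by 1.49 ± 0.22. Sc5d, the lathosterol desaturase, had the smallest called fall of the pathway (-0.99 ± 0.24, adjusted p 0.0278, edgeR), and it was no longer called without NC_0, NC_2, HS_Chol_0 or HS_Chol_2. Ebp, the sterol isomerase, stood at 186, 175 and 190 CPM in HS_Chol and at 222, 216, 234 and 322 CPM in NC and did not pass the test (-0.43 ± 0.20, adjusted p 0.377, edgeR).

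The 7 enzymes with a gene on the other strand carry the added doubt of wrong-strand reads, which add to a level. Hmgcs1, the HMG-CoA synthase, stood at 105, 134 and 75.7 CPM in HS_Chol, against 334, 289, 386 and 853 CPM in NC (-2.15 ± 0.32, adjusted p 0.000267, edgeR). Cyp51, the lanosterol demethylase, averaged 39.7 ± 7.74 CPM in HS_Chol and 219 ± 28.0 CPM in NC, a log2 fold change of -2.46 ± 0.26. Fdft1, the squalene synthase, fell by 1.54 ± 0.26, Lss, which closes the sterol rings, by 1.74 ± 0.28 and Mvd, the mevalonate diphosphate decarboxylase, by 2.21 ± 0.44 on the log2 scale. Mvd was the one called enzyme of this set to lose its call in a fit of the 2 diets alone. Ggps1, which makes geranylgeranyl diphosphate, did not pass the test at -0.49 ± 0.20. Against sucrose alone, 15 of the 20 enzymes were lower in HS_Chol, where 0.651% of all genes were lower and 1.6% higher; the HS_Chol libraries are shared by both comparisons.

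**Figure D2:**
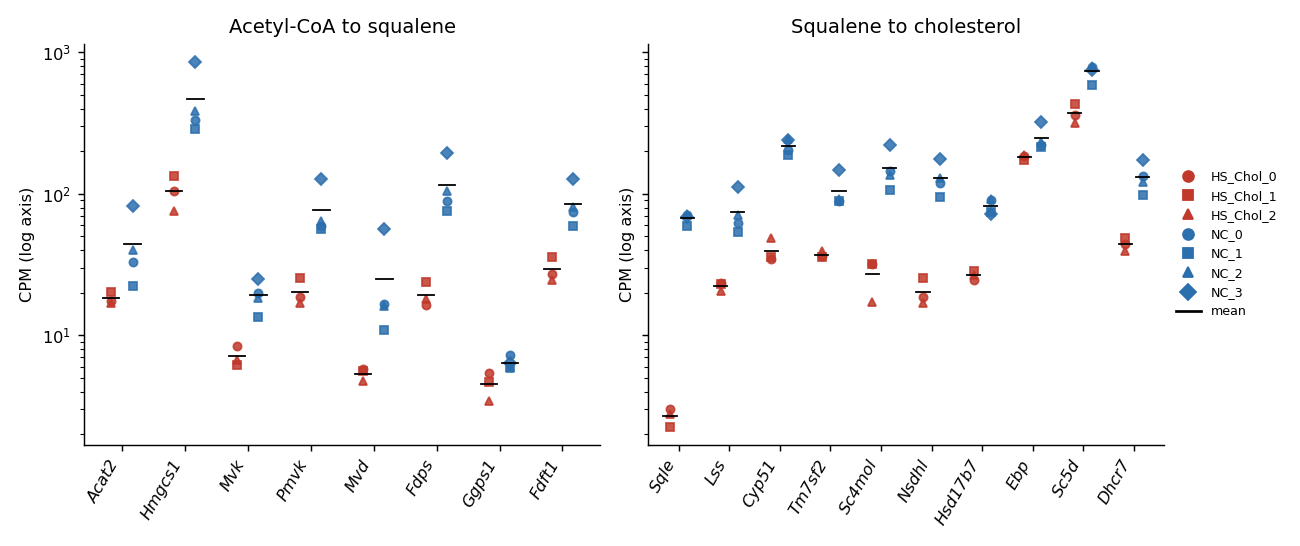
CPM on a log axis of 8 tested enzyme genes from acetyl-CoA to squalene (left) and 10 from squalene to cholesterol (right), with 1 symbol per library and a black line at the mean; HS_Chol libraries are red and stand left of the blue NC libraries. Sqle has the widest gap, with 2.27 to 3.04 CPM in HS_Chol and 58.9 to 71.8 CPM in NC, while Ebp and Ggps1 lie closest.

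The genes that sense sterol and control its uptake moved less. None of 13 tested passed with edgeR, and their median log2 fold change was -0.15. At an unadjusted p under 0.05, 1 was higher and 5 lower, and DESeq2 called 2 lower. In 4 of the 13 every HS_Chol library was below every NC library, which held for 5.57% of all genes tested. Srebf2 itself stood at 46.2, 46.1 and 44.8 CPM in HS_Chol, against 69.9, 78.0, 78.6 and 60.4 CPM in NC (-0.65 ± 0.18, adjusted p 0.0713, edgeR); the libraries do not overlap, and without NC_3 the fall passed the test. Insig1, the sterol-regulated retention protein, averaged 131 ± 41.9 CPM in HS_Chol and 277 ± 43.2 CPM in NC (adjusted p 0.164, edgeR). Soat2, which esterifies cholesterol in hepatocytes and is not one of the 13, was at 33.5 to 37.2 CPM in HS_Chol and 44.0 to 52.8 CPM in NC (adjusted p 0.276, edgeR).

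Some LXR target genes were called higher, among them the sterol exporters Abcg1 and Abcg8. Of 14 tested, 5 were called higher and 1 lower, where 1.71% and 0.564% of all genes tested were, and the median log2 fold change of the list was 0.63. Lpl, the lipoprotein lipase that adult hepatocytes normally express weakly, stood at 113, 138 and 132 CPM in HS_Chol, against 26.2, 42.1, 30.9 and 38.1 CPM in NC (1.89 ± 0.24, adjusted p 4.31e-05, edgeR). On sucrose alone Lpl averaged 32.7 ± 4.97 CPM (SD, n = 5), and HS_Chol was higher than HS by 1.96 ± 0.22 (adjusted p 9.58e-06, edgeR). The lowest HS_Chol library lay well above the highest NC library. Abcg1, a sterol exporter of macrophages and other cells, stood at 22.7, 17.4 and 9.85 CPM in HS_Chol, against 1.72, 3.88, 2.33 and 4.69 CPM in NC (2.40 ± 0.36, adjusted p 0.000305, edgeR), with no gene on the opposite strand. Rnf145, a ubiquitin ligase of the sterol-sensing system, had the smallest called rise (0.62 ± 0.14, adjusted p 0.0138, edgeR), and it was lost without NC_0, NC_2 or HS_Chol_1.

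Abcg5 and Abcg8 form the transporter that moves cholesterol into bile, and their genes start back to back on chromosome 17 with their first parts overlapping. Abcg5 stood at 317, 299 and 244 CPM in HS_Chol, against 75, 69.1, 74.6 and 57.1 CPM in NC (2.06 ± 0.20, adjusted p 2.17e-06, edgeR). Abcg8 stood at 441, 394 and 321 CPM in HS_Chol, against 140, 98.6, 125 and 77.7 CPM in NC (1.81 ± 0.21, adjusted p 1.92e-05, edgeR). Each lies opposite the other over part of its exons, so reads could cross between them. Abcg8 is the stronger of the pair, and the part of wrong-strand reads in the higher level of Abcg5 was not tested; both were called in every alternative that kept them in the table. Against sucrose alone both were also higher in HS_Chol, Abcg5 by 1.63 ± 0.18 and Abcg8 by 1.71 ± 0.20 on the log2 scale.

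Of the other LXR targets described, 1 was called lower and the rest did not pass. Srebf1, the factor for fatty acid synthesis, stood at 741, 730 and 402 CPM in HS_Chol and at 301, 213, 241 and 230 CPM in NC (1.34 ± 0.38, adjusted p 0.0684, edgeR); the groups do not overlap, it has a gene opposite it, and without HS_Chol_2 it passed. Abca1, the exporter that loads nascent HDL, had 274 to 362 CPM in HS_Chol and 154 to 304 CPM in NC (0.35 ± 0.25, adjusted p 0.682, edgeR). Scd1, the stearoyl-CoA desaturase, averaged 34410 ± 10200 CPM in HS_Chol and 22450 ± 3997 CPM in NC (adjusted p 0.569, edgeR). Lpcat3, a phospholipid remodelling enzyme, differed by 0.14 ± 0.14. Pltp, the phospholipid transfer protein, has a gene opposite it and was the member called lower (-2.36 ± 0.57, adjusted p 0.0279, edgeR). It had 37.7, 43.5 and 19.2 CPM in HS_Chol and 89.4, 106, 108 and 383 CPM in NC, so 1 chow library lay far above the others, and it was no longer called without NC_3 or without any 1 of the HS_Chol libraries.

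Bile acid synthesis genes gave a single call. Of 16 tested, 1 fell and none rose, where 0.564% and 1.71% of all genes tested did, and the median log2 fold change was -0.12. Cyp7a1, the rate-limiting enzyme, stood at 50.3, 69.8 and 72.9 CPM in HS_Chol and at 65.0, 42.2, 35.9 and 72.2 CPM in NC, which overlap (0.26 ± 0.40, adjusted p 0.912, edgeR). On sucrose alone it averaged 18.3 ± 10.7 CPM (SD, n = 5), and HS_Chol was higher than HS by 1.81 ± 0.38 (adjusted p 0.00955, edgeR). Cyp8b1, which sets the share of cholic acid, had 416 to 522 CPM in HS_Chol and 467 to 818 CPM in NC, and Cyp27a1, of the alternative route, 420 to 470 CPM in HS_Chol and 441 to 569 CPM in NC; neither passed. Nr0b2, the repressor SHP, overlapped as well, at 34.8 to 91.6 CPM in HS_Chol and 68.7 to 89.8 CPM in NC. The gene that fell was Cyp39a1, the hydroxylase for 24-hydroxycholesterol, at 4.63, 10.9 and 6.40 CPM in HS_Chol, against 45, 39.6, 43.0 and 27.4 CPM in NC (-2.40 ± 0.38, adjusted p 0.000523, edgeR). It was also lower than on sucrose alone, by 1.57 ± 0.36 on the log2 scale (adjusted p 0.0212, edgeR).

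Several genes differed between HS_Chol and sucrose alone and did not pass the test between HS_Chol and chow, although a p that misses the threshold does not show that the levels are alike. Cyp4a14, a fatty acid hydroxylase and PPARalpha target, averaged 605 ± 314 CPM in HS_Chol, 45.8 ± 42.3 CPM in HS and 640 ± 363 CPM in NC (SD; n = 3, 5 and 4). Its difference between HS_Chol and NC was -0.08 ± 0.64, while HS_Chol was higher than HS by 3.72 ± 0.63 (adjusted p 0.000968, edgeR). Cyp3a11, a drug-metabolizing enzyme and PXR target, averaged 2050 ± 618 CPM in HS_Chol, 516 ± 212 CPM in HS and 3615 ± 561 CPM in NC; HS_Chol was higher than HS by 1.99 (adjusted p 0.000108) and did not pass against NC (-0.82 ± 0.30, adjusted p 0.209, edgeR), although every HS_Chol library lay below every NC library. Pnpla3, a lipid-droplet lipase raised by carbohydrate, stood at 6.39, 6.35 and 2.79 CPM in HS_Chol and at 1.86, 1.80, 1.43 and 7.95 CPM in NC, and was lower than HS (mean 27.4 CPM) by 2.40 on the log2 scale (adjusted p 0.00601, edgeR). Its log2 fold change against NC was 0.68, and 1.60 without NC_3 (adjusted p 0.0709, edgeR). Apoa4, an apolipoprotein of intestine and steatotic liver, averaged 328 ± 78.6 CPM in HS_Chol, 1027 ± 395 CPM in HS and 181 ± 44.1 CPM in NC. It was lower in HS_Chol than in HS by 1.65 on the log2 scale (adjusted p 0.0187, edgeR) and did not pass against NC (adjusted p 0.333, edgeR), although every HS_Chol library lay above every NC library. Pnpla3 and Apoa4 have a gene on the opposite strand.

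**Figure D3:**
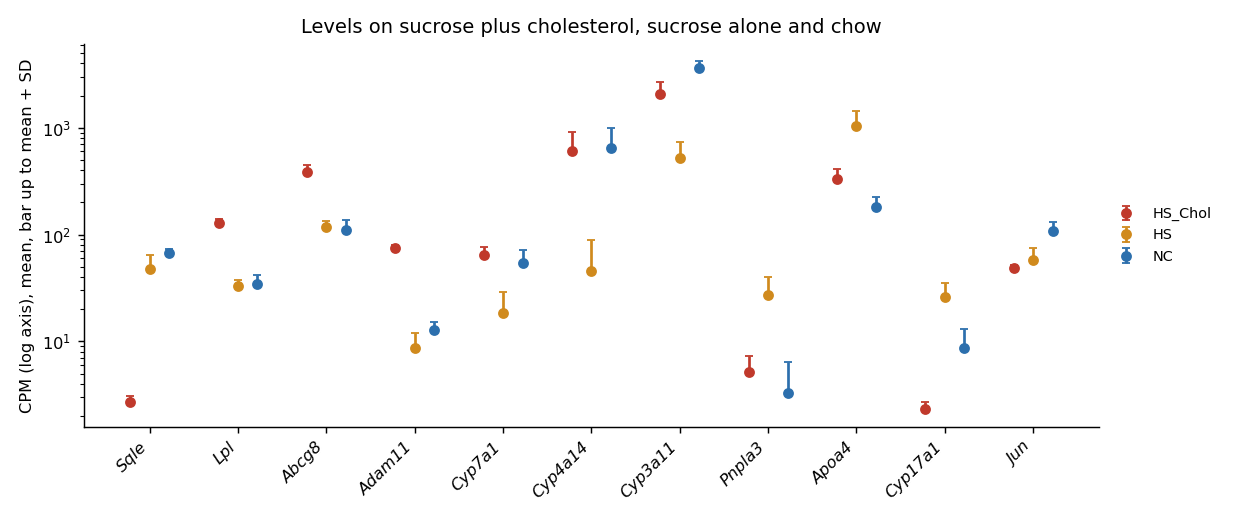
Mean CPM on a log axis of 11 genes on sucrose plus cholesterol (HS_Chol, red, n = 3), sucrose alone (HS, orange, n = 5) and chow (NC, blue, n = 4); the bar above each point reaches the mean plus 1 SD. Sqle and Cyp17a1 are lowest in HS_Chol, Lpl, Abcg8 and Adam11 are highest there, and Cyp4a14 and Cyp7a1 are near NC and above HS.

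Fatty acid metabolism showed few calls with edgeR, where 0.564% of all genes tested were called lower and 1.71% higher. Among 23 fatty acid synthesis genes, 1 fell and none rose (median log2 fold change -0.08), and Fasn, the fatty acid synthase, was at 744 to 973 CPM in HS_Chol and 738 to 1237 CPM in NC. The gene that fell was Acss2, the cytosolic acetyl-CoA synthetase, which averaged 112 CPM in HS_Chol and 324 CPM in NC (-1.53 ± 0.25, adjusted p 0.000898, edgeR). At an unadjusted p under 0.05 (edgeR), which 11.6% of all genes tested reached, 2 of the 23 were higher and 5 lower. DESeq2 called 1 of the 23 higher and 3 lower. Of 30 fatty acid oxidation and PPARalpha genes, Ehhadh, a peroxisomal enzyme, rose by 0.87 ± 0.21 and Pdk4, which restrains pyruvate dehydrogenase, fell by 1.72 ± 0.40 on the log2 scale. Ehhadh was no longer called without HS_Chol_1, HS_Chol_2, NC_0, NC_2 or NC_3, and Pdk4 without HS_Chol_0, HS_Chol_1 or NC_3. With edgeR neither CAR and PXR targets nor NRF2 genes held a called member, with 24 and 20 tested and medians of -0.32 and -0.30. At an unadjusted p under 0.05, 5 CAR and PXR targets and 2 NRF2 genes were lower; DESeq2 called 2 of the CAR and PXR targets lower and none of the NRF2 genes, and a fit of the 2 diets alone also called 2 CAR and PXR targets lower.

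The largest falls outside the sterol pathway were of genes with varied roles. Aldoc, an aldolase of fructose and glucose breakdown, had the smallest adjusted p of the genes named here. It stood at 3.04, 4.08 and 3.94 CPM in HS_Chol, against 21.2, 23, 19.8 and 21.9 CPM in NC (-2.54 ± 0.17, adjusted p 1.32e-08, edgeR). It was also lower in HS than in NC, by 1.03 ± 0.13, and lower in HS_Chol than in HS, by 1.5, so HS lay between the other diets. Cyp26a1, which clears retinoic acid, fell by 3.46 ± 0.80 and Cib3, a calcium-binding protein, by 3.38 ± 0.70 on the log2 scale. Chrna4, a nicotinic receptor subunit, averaged 2.21 CPM in HS_Chol and 23 CPM in NC, where NC_3 alone held 59.6 CPM, and it was no longer called without NC_3 or without any 1 HS_Chol library. Cyp26a1 lost its call without NC_2, HS_Chol_0 or HS_Chol_2, and Cib3 without HS_Chol_0. Raet1d belongs to a family of near-identical NKG2D ligand genes, so its fall (-2.53 ± 0.61, adjusted p 0.0297, edgeR) is uncertain, and it was lost without HS_Chol_0, HS_Chol_2, NC_0, NC_1 or NC_2.

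With edgeR, falls in the remaining lists came to at most 2 called members in each, where 0.564% of all genes tested were called lower. At an unadjusted p under 0.05 (edgeR), 7 of 16 immediate early genes were lower and none higher (median log2 fold change -0.67). So were 6 of 22 amino acid and urea cycle genes and 7 of 18 periportal genes, again with none higher. DESeq2 called 5, 4 and 3 members of these lists lower in that order. Over all genes tested 11.6% reached such a p in either direction. Cyp17a1, a steroid hydroxylase, was at 1.92 to 2.72 CPM in HS_Chol and 3.63 to 13.2 CPM in NC (-1.89 ± 0.41), and lower than HS (26.2 CPM) by 3.49 on the log2 scale. Ass1, of the urea cycle, fell by 0.88 ± 0.21 and Gls2, the liver glutaminase, by 0.73 ± 0.15; they were the 2 called of 22 amino acid and urea cycle genes and of 18 periportal genes. Apcs, serum amyloid P, fell by 1.35 ± 0.24 and was the one called of 20 acute phase genes, while Saa1 overlapped between the groups at 18.4 to 96.6 CPM in HS_Chol and 14.8 to 50.4 CPM in NC. Jun, an immediate early factor, stood at 44.6 to 51.4 CPM in HS_Chol, against 77.3 to 130 CPM in NC (-1.17 ± 0.25, adjusted p 0.0115, edgeR), the one called of 16 such genes, and HS was at a mean of 57.5 CPM. Lgr5, a receptor of the Wnt pathway in pericentral hepatocytes, fell by 1.51 ± 0.31, the one called of 18 pericentral genes. Cyp17a1, Gls2, Lgr5 and Ass1 were no longer called without HS_Chol_0, Jun without HS_Chol_1, and Ass1 also without HS_Chol_1, HS_Chol_2 or NC_3. Gls2, Jun and Lgr5, like Acss2 and Ehhadh, have a gene on the opposite strand.

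Adam11, a catalytically inactive membrane protein studied mainly in brain, was among the steadiest rises. It stood at 74.8, 79.6 and 71.9 CPM in HS_Chol, against 12.5, 15.4, 13.8 and 10.1 CPM in NC (2.54 ± 0.42, adjusted p 0.000908, edgeR). The 3 HS_Chol libraries lie close together, and HS averaged 8.59 CPM, from which HS_Chol differed by 3.14 ± 0.40 (adjusted p 4.09e-05, edgeR). It lies on chromosome 11 at 102761439 to 102780262 (GRCm38, plus strand) with no gene opposite it, and no alternative removed its call.

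Some macrophage genes rose in HS_Chol, to a different degree in each library. Of 17 Kupffer cell genes tested, 4 rose and none fell, where 1.71% of all genes tested rose, with a median log2 fold change of 1.48, and in 11 of them every HS_Chol library was above every NC library (6.83% of all genes tested). At an unadjusted p under 0.05 (edgeR), 13 of the 17 were higher and none lower, and DESeq2 called 8 higher. Cd5l, a secreted scavenger protein of Kupffer cells, stood at 180, 96.4 and 49.6 CPM in HS_Chol, against 22.3, 24.0, 21.0 and 27.0 CPM in NC (2.20 ± 0.43, adjusted p 0.00466, edgeR). Vsig4, a complement receptor, averaged 23.2 ± 5.15 CPM in HS_Chol and 8.30 ± 0.65 CPM in NC, and Emr1, the older symbol of F4/80, averaged 15.2 ± 5.87 CPM in HS_Chol and 3.35 ± 1.53 CPM in NC. Csf1r, the receptor on which these cells depend, stood at 79.7, 47.8 and 32.8 CPM in HS_Chol, against 15.8, 17.4, 16.1 and 18 CPM in NC. HS_Chol_0 was the highest and HS_Chol_2 the lowest library for all 4. On sucrose alone Cd5l averaged 44.5 CPM, Vsig4 14.8 CPM and Emr1 6.93 CPM. Cd5l, Vsig4 and Emr1 did not pass between HS_Chol and HS (adjusted p 0.113, 0.396 and 0.232, edgeR). Clec4f, Timd4 and the 3 C1q chains did not pass with edgeR. Clec4f stood at 94.7, 58.5 and 49.9 CPM in HS_Chol and 20.9 to 38.8 CPM in NC (adjusted p 0.0522, edgeR). Of 17 alternative settings Clec4f passed in 6, among them DESeq2, a fit of the 2 diets alone and leaving out NC_3 or HS_Chol_2. Without HS_Chol_0 none of the 17 Kupffer cell genes was called and the list's median was 1.04. Between 1 and 2 were called without NC_0, NC_1, NC_2 or HS_Chol_1, 6 without NC_3 and 7 without HS_Chol_2.

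Other genes of myeloid cells followed the same library order. Mpeg1, a pore-forming protein of macrophages, stood at 346, 159 and 80.9 CPM in HS_Chol, against 49.3, 35.9, 24.4 and 42.8 CPM in NC (2.36 ± 0.43, adjusted p 0.00232, edgeR). Fcgr3, an IgG receptor, rose by 2.34 ± 0.55, Apbb1ip, an integrin activator of blood cells, by 2.33 ± 0.51 and Ly86, the partner of a TLR-like receptor, by 2.26 ± 0.57 on the log2 scale. Each of the 3 was below 3 CPM in every NC library, and each lost its call without HS_Chol_0, NC_0, NC_1 or NC_2, Fcgr3 and Ly86 also without HS_Chol_1 and Ly86 without NC_3. On sucrose alone Fcgr3 averaged 4.15 CPM, Apbb1ip 2.41 CPM and Ly86 2.90 CPM. Between HS_Chol and HS these genes did not pass (adjusted p 0.429, 0.283 and 0.294, edgeR). Mpeg1 averaged 68.35 CPM in HS and was higher in HS_Chol than in HS (adjusted p 0.0474, edgeR). Among 20 genes that mark recruited and lipid-laden macrophages the one called higher was Lpl, which the LXR list holds too. The median log2 fold change of the 20 was 0.94, with 15 above 0 and 5 below. At an unadjusted p under 0.05 (edgeR), 8 were higher and 1 lower, and DESeq2 called 3 higher and none lower. Trem2 and Gpnmb, defining genes of these macrophages, were at 0.479 to 0.656 and 0 to 2.08 CPM in HS_Chol and at 0 to 0.426 and 0 to 0.568 CPM in NC. Neither passed, and these levels rest on few reads.

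With edgeR, a few antigen-presentation and interferon genes were called higher. Of the 14 genes tested that mark dendritic cells or belong to MHC class II, 2 rose, where 1.71% of all genes tested did. At an unadjusted p under 0.05 (edgeR), 11 of the 14 were higher and none lower, and DESeq2 called 6 higher. All 14 had a positive change, with a median of 2.09, and without HS_Chol_0 the median was 1.06. Cd74, the MHC class II invariant chain, stood at 599, 256 and 136 CPM in HS_Chol, against 34.5, 70.9, 41.6 and 110 CPM in NC (2.36 ± 0.59, adjusted p 0.0375, edgeR). Ciita, the class II transactivator, stood at 7.67, 2.27 and 1.15 CPM in HS_Chol and at 0.389 to 1.25 CPM in NC, so its lowest HS_Chol library lay among the NC libraries. Dexi, the gene opposite Ciita, is the stronger of the pair at 27.4 CPM in HS_Chol and 23.7 CPM in NC, and the part of wrong-strand reads in the higher level of Ciita was not tested. Of 26 interferon-stimulated genes, edgeR called 2 higher and DESeq2 4. The median log2 fold change of the list was 0.73, and 0.27 without HS_Chol_0. At an unadjusted p under 0.05 (edgeR), 12 of the 26 were higher and none lower. One of the 2 edgeR calls was Gbp3, at 31.8, 10.1 and 4.92 CPM in HS_Chol and 2.86 to 4.97 CPM in NC. Gbp1, another interferon-induced GTPase and a member of a family of similar genes, stood at 20.9, 9.07 and 2.95 CPM in HS_Chol, against 0.286 to 1.99 CPM in NC (3.29 ± 0.65, adjusted p 0.00553, edgeR). Of 26 chemokine and inflammatory genes, Vcam1, an adhesion molecule, and Tnfaip3, a brake on NF-kappaB, rose by 1.63 ± 0.39 and 1.34 ± 0.33. The median log2 fold change of this list was 1.25. At an unadjusted p under 0.05 (edgeR), 7 of its genes were higher and 1 lower, and DESeq2 called 2 higher. Without HS_Chol_0 none of the genes in these 3 lists was called, and Gbp1 was no longer called. Of their called members, Cd74, Ciita, Gbp3, Vcam1 and Tnfaip3 also lost their call without NC_0, NC_1 or NC_2; so did Cd74, Vcam1 and Tnfaip3 without HS_Chol_1, and Ciita without NC_3. Vcam1 and Ciita, like Csf1r, have a gene on the opposite strand. Against sucrose alone, Cd74 (adjusted p 0.0454, edgeR) and Gbp1 (adjusted p 0.00237, edgeR) were higher in HS_Chol. Ciita, Gbp3, Vcam1 and Tnfaip3 did not pass in that comparison.

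HS_Chol_0 was the highest of its group for 38 of the 53 higher genes without an opposite-strand gene (71.7%), HS_Chol_1 for 13 and HS_Chol_2 for 2. Among all 6862 such genes HS_Chol_0 was highest for 33.6%, and among the 41 lower genes for 11. HS_Chol_0 also had a negative trend of counts with transcript length (-0.0443), against 0.0540 and 0.0270 in the other 2 HS_Chol libraries, -0.156 in NC_3 and 0.105 to 0.121 in the other NC libraries. In a fit with a term for the sign of this trend, all 53 higher genes kept their call. The part of the trend in the rises was not tested beyond that fit. With edgeR the stellate cell and sinusoidal endothelial lists had no called gene among 18 each, with medians of 0.24 and 0.46. At an unadjusted p under 0.05, none of the stellate and 3 of the endothelial genes were higher and none lower. DESeq2 called 1 endothelial gene higher, as did edgeR with a replicate block, without NC_3 or without HS_Chol_2. For both lists the summed levels overlapped between HS_Chol and NC.

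**Figure D4:**
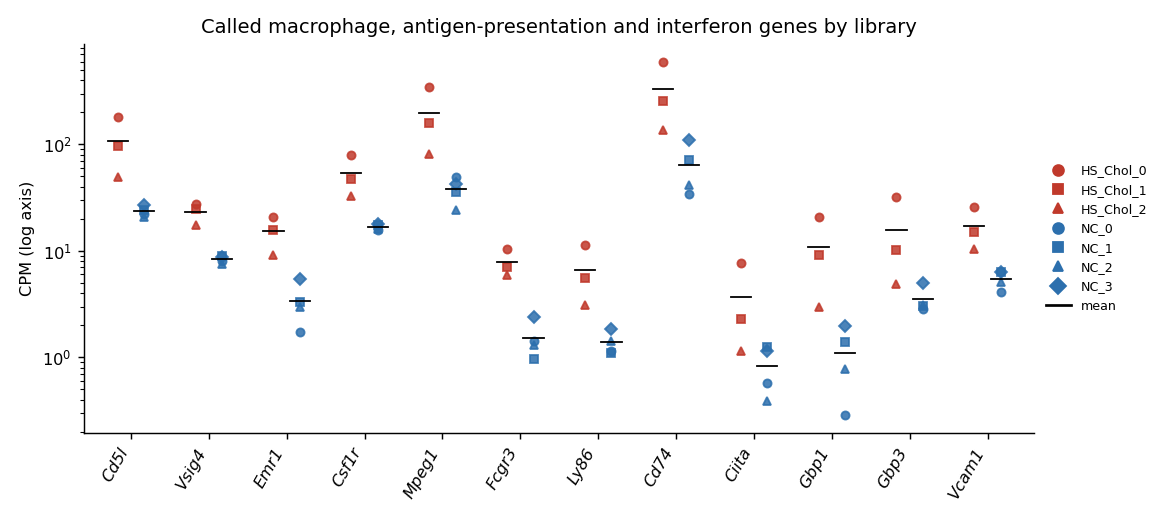
CPM on a log axis of 12 called macrophage, antigen-presentation and interferon genes, 1 symbol per library, HS_Chol in red to the left of NC in blue, with a black line at each mean. In most genes HS_Chol_0 (circle) is highest and HS_Chol_2 (triangle) lowest, as for Cd74 at 599, 256 and 136 CPM.

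Cfd, which encodes adipsin and is made mostly by fat cells, had the largest rise among the called members of the gene lists. It stood at 110, 73.0 and 2.79 CPM in HS_Chol and at 0.573, 0.139, 0.130 and 3.83 CPM in NC (5.73 ± 0.92, adjusted p 0.00125, edgeR), so HS_Chol_2 lay below NC_3 and the groups overlap. Cidec, a lipid-droplet protein of fat cells and fatty liver, stood at 18.9, 28.3 and 4.92 CPM in HS_Chol and at 3.44, 0.692, 3.11 and 5.96 CPM in NC (adjusted p 0.0491, edgeR). It overlaps too, and it was no longer called without HS_Chol_0, HS_Chol_1, NC_0, NC_1 or NC_2. Of 10 adipose genes 5 could be tested and these 2 rose, where 1.71% of all genes tested did. The defining fat-cell genes Adipoq and Plin1 had 17 and 14 reads in HS_Chol_1 and 0 reads in HS_Chol_0, HS_Chol_2 and every NC library. The summed level of the 5 tested adipose genes was 180, 162 and 32.3 CPM in HS_Chol and 37.9 to 66.9 CPM in NC.

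Genes with a gene on the other strand made up most of the rises. Of 5497 such genes 132 were higher and 28 lower, where 1.71% of all genes tested were higher and 0.564% lower. Of the genes without an opposite-strand gene 0.772% were higher and 0.597% lower. The split of the calls went with the strength of the gene opposite, a division made after the values were seen. Where the partner was the stronger of the 2 genes, 98 of 1155 were higher and 6 lower; where the partner was weaker, 22 of 2757 were higher and 17 lower. The 5 largest of these rises at 5 CPM or more were Gm20536, D030055H07Rik, Gm10680, Gm16567 and Gm16537, predicted or uncharacterized genes with log2 fold changes of 5.42 to 6.20. Gm10680 lies opposite Apoa4 on chromosome 9 (46242621 to 46243529, minus strand) and stood at 22.2, 24.3 and 14.4 CPM in HS_Chol, against 0.859, 0.139, 0.259 and 0.568 CPM in NC. As a share of Apoa4 it was 6.73%, 6.00% and 5.82% in HS_Chol and 0.085% to 0.396% in NC. Gm16567 was at 4.52% to 5.94% of C1s1, the complement protease gene opposite it, in HS_Chol and at 0 to 0.217% in NC. D030055H07Rik was at 4.36% to 5.64% of Glyctk in HS_Chol and at 0 to 0.315% in NC. Over 223 pairs with overlapping exons and a partner of at least 100 CPM, the weaker gene was higher in 52 and lower in 2. The median level of the weaker gene over these pairs was 5.79% to 6.12% of its partner in HS_Chol and 4.18% to 5.06% in NC, a smaller difference than in the pairs named here. The rises of these 5 genes and the larger share of wrong-strand reads cannot be told apart. Abcg5 and Ciita are also among the 98. Another 236 tested symbols matched no annotated gene, so whether a gene lies opposite them is not known. Of these, 31 were higher and 2 lower.

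**Figure D5:**
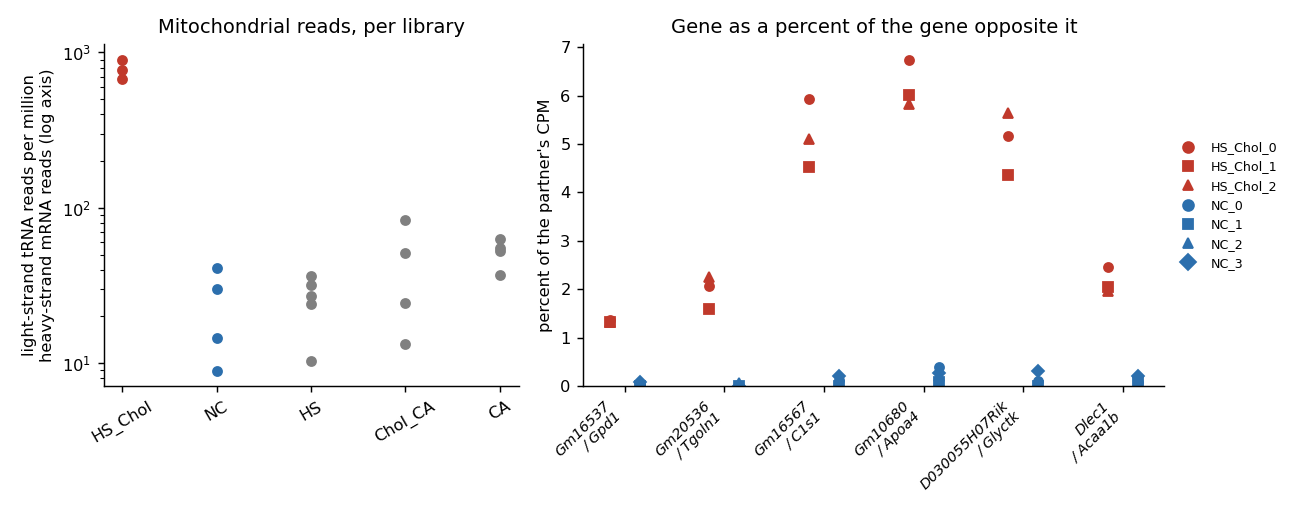
Left, reads on light-strand mitochondrial tRNA genes per 1000000 heavy-strand mRNA reads (log axis), 1 point per library for each of the 5 diets: 673 to 900 in HS_Chol, 8.95 to 40.8 in NC and at most 83.4 in the other diets. Right, the level of 6 genes as a percent of the gene opposite them, 1 symbol per library, HS_Chol in red left of NC in blue; the HS_Chol libraries lie between 1.32% and 6.73% and all NC libraries below 0.4%.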

How the data were processed

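The values deposited by the authors are whole read counts per gene symbol in a single table. The submitters' processing notes name STAR 2.6.1c and the build mm10; the strand counted is not given in the sources used here. Per the labels' protocols, 100 ng of total RNA per sample went into stranded TruSeq total RNA libraries read from 1 end for 50 bp. Columns carry a diet and a number, so each was matched to a diet and not to a single sample; another 3 columns fit no label and were left out, and HS_Chol had 3 columns for 4 labelled samples. Symbols were matched to GENCODE M21 (GRCm38); 3574 of 34436, with 0.437% of the reads, were not found. A gene counts as having an opposite-strand gene where their bodies overlap.

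The test was the edgeR quasi-likelihood test (edgeR 4.0.16, R 4.3.3), after TMM scaling and filterByExpr and with robust dispersions, with 1 mean for each of 5 diets over 20 libraries. The common biological coefficient of variation was 0.235. HS_Chol was set against NC, with HS as a side comparison, and Benjamini-Hochberg adjustment over all 12595 genes. DESeq2 1.42.0, other scalings and filters, left-out libraries and a replicate block were tried. In CPM, 3 reads in 1 library come to 0.453 to 0.492 in HS_Chol and 0.389 to 0.430 in NC; precision at such levels is set by counting error.

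The members and gene lists were chosen with earlier results of these data known. Named genes are a fixed set, the 10 largest rises and falls among called protein-coding genes without an opposite-strand gene (at least 5 CPM in a diet, libraries not overlapping, no predicted models), called members of the sterol lists, up to 3 called members of other lists, and the 5 largest rises of at least 5 CPM with an opposite-strand gene. Acat2, Csf1r, Idi1, Ebp, Ggps1, Alb, Adipoq and Plin1 were named to complete a list or check a tissue after their values were seen. Some members of the lists are not reported here by name; they are included in the counts and medians.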

Additional observations from a re-analysis of the deposited data

Results flagged for a closer look

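In groups of 4 chow libraries, the gap between the most distant library and its neighbour was divided by the range of the group and set against Dixon's 95% critical value for 4 values. Of 87 sets of chow values examined, 16 lay above it. Chance gives about 1 in 20 for independent sets of normally distributed values. These sets share the same 4 libraries and most hold genes named for their calls, so that rate cannot be set against the count. The 3 HS_Chol libraries are too few for Dixon's ratio. NC_3 was the distant library in 14 of the 16.

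Sterol and lipid genes were among them. NC_3 held 56.1 CPM of Mvd, against 10.9 to 16.8 CPM in the other chow libraries (ratio 0.871), 127 CPM of Pmvk against 56.8 to 64.8 (0.885), 148 CPM of Tm7sf2 against 88.5 to 91.7 (0.947) and 516 CPM of Acss2 against 254 to 270 (0.94). It held 383 CPM of Pltp against 89.4 to 108 (0.935), 7.95 CPM of Pnpla3 against 1.43 to 1.86 (0.933) and 21.9 CPM of Pdk4 against 12.9 to 13.5 (0.933). Among the other genes, NC_3 held 59.6 CPM of Chrna4 against 10.0 to 12.3 (0.954), 792 CPM of Ass1 against 489 to 535 (0.847) and 113 CPM of Apcs against 63.4 to 65.4 (0.96). It also held 4.97 CPM of Gbp3 against 2.86 to 3.11 (0.882) and 3.83 CPM of Cfd against 0.130 to 0.573 (0.88).

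The library measures of NC_3 stood apart as well, with a slope of counts on transcript length of -0.156 against 0.105 to 0.121 (ratio 0.942) and 13.7% of its reads on mitochondrial genes against 8.65% to 9.03% (0.925). NC_2 was the distant library for Lgr5, at 7.65 CPM against 12.8 to 13.7 (0.842), and for Gm20536, at 0.259 CPM against 0 in the other chow libraries (ratio 1).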

How the results depend on the processing

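Over 17 alternatives, 29 of the 59 named called genes kept their call in each that tested them, 8 lost it in 1 to 3, 22 in more, and none changed direction. With DESeq2 the counts of higher and lower genes were 355 and 163 over all genes and 135 and 94 among genes without an opposite-strand gene, and they held every call of the edgeR fit. A term for the sign of the length trend gave 344 and 159, and 123 and 92. A minimum fold of 1.5 gave 140 and 26, and 17 and 17. Leaving out NC_3 and HS_Chol_0 together, an alternative chosen after seeing the data, gave 140 and 37, and 14 and 22. With no filter on low counts 358 were higher over all genes, and a fit of the 2 diets alone gave 35 higher without an opposite-strand gene. Leaving out 1 library at a time gave 147 to 319 higher and 36 to 82 lower over all genes, and 14 to 107 and 23 to 44 without an opposite-strand gene; each lowest count came without HS_Chol_0. Counting as opposite only genes whose exons overlap, also chosen after seeing the data, gave 65 and 47. Differences that never passed changed sign for Nr0b2 without HS_Chol_1 (0.118; -0.411 to 0.118 over left-out libraries), Cyp4a14 without NC_1 (0.2), NC_2 (0.089) or HS_Chol_2 (0.223; -0.582 to 0.223), and Saa1 without HS_Chol_0 (-0.478; up to 1.129) or without it and NC_3 (-0.587). The cause of these shifts was not tested. No scaling moved the median of all genes by more than 0.1. The scalings centre most genes by design, so this median cannot show whether the choice of scaling matters. The HS_Chol mean of light-strand tRNA reads was 33.1 times the NC mean when scaled to heavy-strand mRNA reads, and 29.2 times when scaled to total reads.

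The samples share replicate numbers only as names: deviations from the group means of same-numbered HS_Chol and NC libraries correlated at -0.184, 0.045 and 0.116. A replicate block gave 218 higher and 50 lower over all genes and 63 and 31 without an opposite-strand gene. Depth limits the lowest genes: Idi1 was not tested.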

Other observations

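Some called genes outside the lists, named after their values were seen, have known roles in lipid and vitamin metabolism and no gene on the opposite strand. Rdh11, a retinol dehydrogenase, stood at 27.5, 24.6 and 22.3 CPM in HS_Chol, against 73.2, 55.5, 89.5 and 142 CPM in NC (log2 fold change -1.86 ± 0.26), and was lower in HS_Chol than in HS by 1.99. Mmab, of vitamin B12 metabolism and a neighbour of Mvk, averaged 22.7 ± 3.17 CPM in HS_Chol and 43.8 ± 10.2 CPM in NC. Hsd17b11, a lipid-droplet dehydrogenase, stood at 341, 393 and 388 CPM in HS_Chol, against 217 to 242 CPM in NC (0.70 ± 0.14). Lepr, the leptin receptor, averaged 14.6 ± 1.84 CPM in HS_Chol, 9.81 ± 3.68 CPM in HS and 3.57 ± 1.55 CPM in NC. Cth, a transsulfuration enzyme, averaged 140 ± 20.6 CPM in HS_Chol, 146 ± 21.3 CPM in HS and 266 ± 22.8 CPM in NC.

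In other lists the edgeR test called no gene: 20 genes of the ER stress response, 18 of the circadian clock, 22 of the cell cycle, 22 lysosomal genes, 21 of glycolysis and gluconeogenesis, 20 of lipoprotein assembly and uptake, 16 of bile acid transport and FXR, and 15 of MHC class I. At an unadjusted p under 0.05, which 11.6% of all genes tested reached, 3, 2, 2, 4, 3, 4, 3 and 3 of them differed in that order. DESeq2 called 3 lysosomal genes and 1 MHC class I gene higher, 1 ER stress gene and 2 bile acid transport and FXR genes lower, and none in the other 4 lists. A term for the sign of the length trend called 4 lysosomal genes higher. MHC class I genes had a positive change in all 15, with a median log2 fold change of 0.52. Markers of T and NK cells and of B and plasma cells had no edgeR call among 12 and 8 tested, although 1 and 3 were higher at an unadjusted p under 0.05. DESeq2 called 1 B and plasma cell gene higher and no T and NK cell gene, and edgeR also called 1 B and plasma cell gene with the length-trend term, without NC_3 or without HS_Chol_2. The lists had summed levels of 7.88 to 17.3 and 16.6 to 75.3 CPM in HS_Chol and 3.11 to 11.9 and 9.73 to 62.1 CPM in NC.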
